A study of Rattus norvegicus with 12 samples.

Results

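The comparison described here sets pyramidal neurons of the hippocampal CA1 field against neurons of the frontal cerebral cortex (CTX), 2 populations of forebrain neurons that the study placed on opposite sides of its question about sensitivity to oxidative stress. It uses the 3 arrays titled Hippocampal CA1 and the 3 titled Cerebral cortex, paired by replicate number, which are 6 of the 12 arrays in the series. The animals were untreated Fisher 344/BN F1 hybrid rats aged 6 months. Cells of 4 regions (CA1, CA3, the cerebellar granule layer, CbG, and CTX) were cut out of stained frozen sections with a laser, their RNA was amplified in 2 rounds and it was hybridised to Affymetrix RAE230A arrays, with 3 biological replicates per region. Replicate numbers were read as animals, because all regions were taken from each animal, although no source used here states that a number marks an animal. Hippocampal samples came from the pyramidal cell layer and cortical samples from layers IV to VI, so that a CTX sample pools neurons of several layers and types. No oxidative stress was applied to these animals, and the values describe the resting state.

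CA1 pyramidal neurons are the output neurons of the hippocampus. They receive glutamatergic input from CA3 along their apical dendrites, where AMPA and NMDA receptors, A-type potassium current and calcium signalling shape synaptic plasticity, and they are known for early loss after ischemia. Deep cortical layers hold pyramidal neurons that project to the thalamus, brainstem, spinal cord and other cortical areas, together with GABAergic interneurons, and they are rich in myelinated axons, which the CA1 pyramidal layer largely lacks.

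Within each region the 3 arrays resembled each other, with mean correlations of log2 signals of 0.927 to 0.934 in CA1 and 0.932 to 0.935 in CTX, and none of the 6 went against its label. Arrays of the regions not compared here are quoted only for the labelled CA3 replicates 1 and 2, since the array labelled CA3 replicate 3 correlated better with CbG (0.921) than with CA3 (0.858). The log2 ratio of 3′ to 5′ signal of β-actin, a sign of RNA length after amplification, lay between 4.62 and 5.35 in CA1 and between 4.13 and 5.13 in CTX. The same ratio of GAPDH was higher in CTX within each numbered pair, at 1.55, 2.21 and 1.74 in CA1 of replicates 1 to 3 and 2.06, 2.76 and 2.47 in CTX, and its part in the differences below was not tested. The 2 groups differed in the median of the array, although the mean without the lowest and highest 2% was 500.1 in all 6. Median signals were 147.7 to 161.3 in CA1 and 187 to 199.3 in CTX, a log2 difference of -0.31, and signals below 50 made up 26.3% to 30.1% of a CA1 array and 20.8% to 23.5% of a CTX array. Signals were centred on each array's median. That choice itself moved the median log2 difference (CA1 minus CTX) of all probe sets tested to 0.31, from -0.01 without centring.

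Of 8221 probe sets tested, 2326 (28.3%) were higher in CA1 and 838 (10.2%) were higher in CTX, by at least 1.5-fold at an adjusted p under 0.05 in limma's moderated test with the replicate number as a block. These 2 conditions together are what "called" means below. The split depended on the scale: 73.5% of calls were higher in CA1 after median centring, against 43.0% without centring (27.8% of probe sets called, 983 higher in CA1 and 1304 higher in CTX) and 49.9% after quantile normalization (28.1% called, 1151 and 1157). Of the 838 calls higher in CTX, 836 held without centring, whereas 983 of the 2326 calls higher in CA1 did, and 0 calls turned to the other direction. At 2-fold or more, the shares of all tested were 9.73% for CA1 and 6.03% for CTX. Large differences were more evenly divided, with 134 probe sets at least 4-fold higher in CA1 and 154 at least 4-fold higher in CTX. Deposited signals of the 3 CA1 and 3 CTX arrays did not overlap in 44.9% of the probe sets tested.

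**Figure D1:**
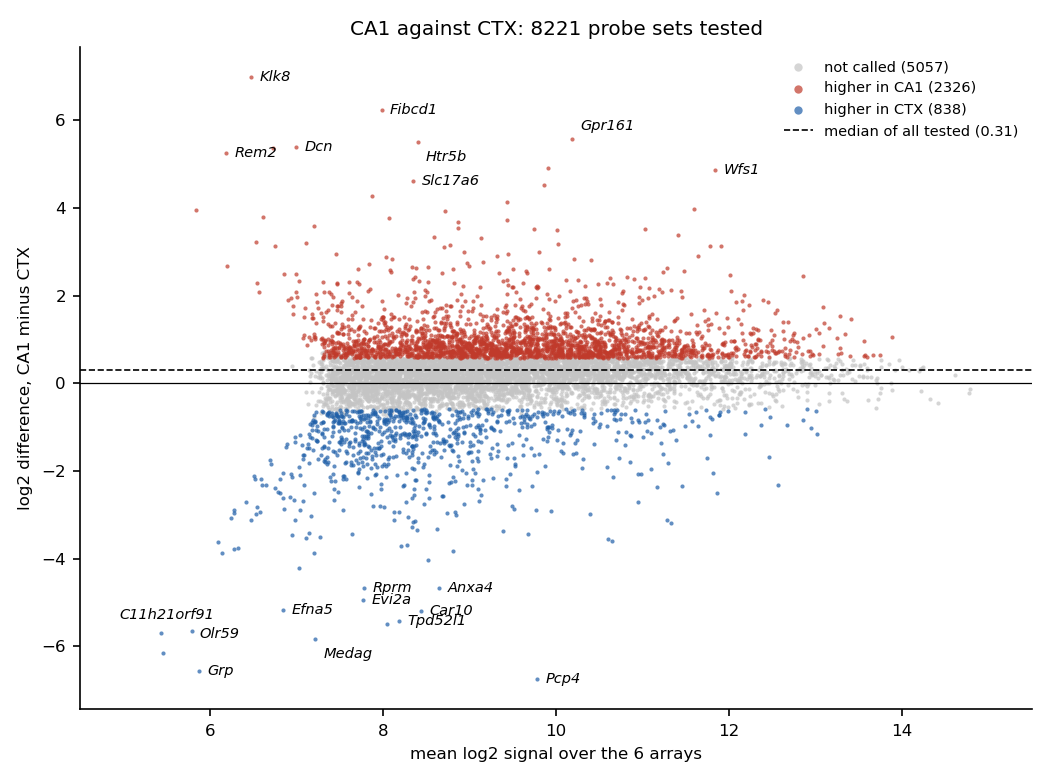
Log2 difference between CA1 and CTX against mean log2 signal for each of the 8221 probe sets tested, in red where called higher in CA1 (2326), in blue where called higher in CTX (838) and in grey where not called. The dashed line marks the median of all tested, 0.31, which lies above 0, and the largest differences with a single gene name are labelled.

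The customary marker of CA1 pyramidal cells, *Wfs1*, encodes wolframin, a membrane protein of the endoplasmic reticulum. Its signals were 15688, 20538 and 17373 in CA1 of replicates 1 to 3 and 816, 645 and 816 in CTX. The gap was wide in each pair (log2 difference 4.87 ± 0.20, limma adjusted p = 2.8e-08). Here and below, ± gives limma's moderated standard error over 3 pairs, which draws on the spread of all probe sets. For genes uneven between pairs it is smaller than the spread of the 3 pairs alone would give. *Fibcd1*, another CA1 marker that encodes a membrane receptor for acetylated sugars, gave 1397, 2707 and 2038 in CA1 against 18.1, 29.2 and 64.0 in CTX (6.25 ± 0.25, or 5.50 when all signals under 50 were set to 50). All 7 CA1 pyramidal markers tested, of 12 listed, were higher in CA1 (median log2 difference 3.73, against 0.31 for all probe sets tested and a background of 28.3% called in this direction), and all 7 held without centring. They also included *Pou3f1*, a POU transcription factor (3.73), *Ccn3*, a matricellular protein (2.52), *Man1a1*, a mannosidase of the Golgi (2.04) and *Mpped1* (1.39). A marker low in CTX could pass the filter on low signals through CA1 alone, and 2 on the array did not pass.

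The largest difference higher in CA1, on the signals as deposited, was that of *Klk8*, which encodes neuropsin, an extracellular serine protease of hippocampal neurons. Its signals were 787, 870 and 1068 in CA1 and 12, 13.9 and 4.1 in CTX, so that all CTX values lay in the range where signals carry little information. The log2 difference was 6.99 ± 0.36 as deposited and 4.49 with the floor of 50, below that of 5 other genes with a symbol, *Gpr161*, *Fibcd1*, *Htr5b*, *Wfs1* and *Rasd1*. *Gpr161*, a G protein coupled receptor of the primary cilium, was well above that range in both regions, at 6972, 7757 and 6904 in CA1 and 130, 220 and 229 in CTX (5.58 ± 0.21). The serotonin receptor gene *Htr5b* gave 1898, 2462 and 1803 against 31.4, 51.7 and 107 (5.50 ± 0.28, or 5.28 with that floor). Both receptors were far lower in CA3 than in CA1, with 814 and 394 for *Gpr161* and 128 and 48.7 for *Htr5b*. The CA3 signals of *Gpr161* were nevertheless above its CTX signals.

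*Neurod1*, a basic helix-loop-helix transcription factor of neuronal differentiation, was measured at 839, 663 and 1408 in CA1 and at 73.7, 52.2 and 53.6 in CTX (4.28 ± 0.26). Signals of *Slc17a6*, the vesicular glutamate transporter VGLUT2, were uneven between replicates, at 854, 1582 and 2219 in CA1 and 219, 98.3 and 18.3 in CTX. The 2 groups did not overlap (4.61 ± 0.64, limma adjusted p = 0.000189), but the standard error was among the larger ones. The differences within pairs were 2.26, 4.22 and 7.35. *Rem2*, a small GTPase that restrains calcium channels (5.26, or 3.33 with the floor of 50), *Rasd1*, a dexamethasone-induced Ras-like protein (4.53), *Pkp2*, a desmosomal plakophilin (4.14), *Wipf3*, an actin regulator (3.97), and *Frzb*, a secreted Wnt antagonist (3.93), had standard errors of 0.19 to 0.26. The remaining genes among the 15 largest were *Dcn*, the proteoglycan decorin (5.40 ± 0.65), *Tac3*, the neurokinin B precursor (3.95 ± 0.58), and *Lrrc23* (3.79 ± 0.27). With the floor of 50 these 3 differences were 4.04, 2.06 and 3.03. Within pairs, *Dcn* differed by 2.71, 5.56 and 7.92 and *Tac3* by 1.30, 5.03 and 5.52.

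On the cortical side the largest difference was that of *Pcp4*, a small calmodulin-binding protein. Its signals were 9095, 12620 and 9125 in CTX and 183, 60.0 and 39.9 in CA1, and CA3 stood nearer to CTX with 5599 and 5856. The log2 difference was -6.75 ± 0.35 (limma adjusted p = 1.45e-07). *Car10*, a carbonic anhydrase-related protein, followed the same order, with 2439, 2252 and 2358 in CTX, 47.5, 43.5 and 65.9 in CA1 and 576 and 773 in CA3 (-5.20 ± 0.21).

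*Anxa4*, a phospholipid-binding annexin, gave 2862, 2198 and 1799 in CTX against 100, 63.5 and 57.1 in CA1 (-4.66 ± 0.19), and its other probe set did not pass the filter on low signals. *Rprm*, the cell cycle arrest protein reprimo and a marker of layer VI, gave 1158, 1325 and 1228 against 62.3, 43.1 and 22.2 (-4.67 ± 0.25), with CA3 as low as CA1 at 62.1 and 12.6. Several of the leading cortical genes were near the lower end of the scale in CA1. *Grp*, gastrin-releasing peptide, stood at 849, 404 and 745 in CTX and 3.3, 8.5 and 5.6 in CA1 (-6.56 ± 0.34 as deposited, -3.35 with signals under 50 set to 50). The same floor shortened *C11h21orf91* from -5.70 to -2.48, *Olr59*, an olfactory receptor gene, from -5.66 to -2.81, *Medag* from -5.83 to -4.33 and *Tpd52l1* from -5.41 to -4.70. In each of these genes the 3 CTX signals remained above the 3 CA1 signals, which their choice by size of difference on these arrays makes likely.

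**Figure D2:**
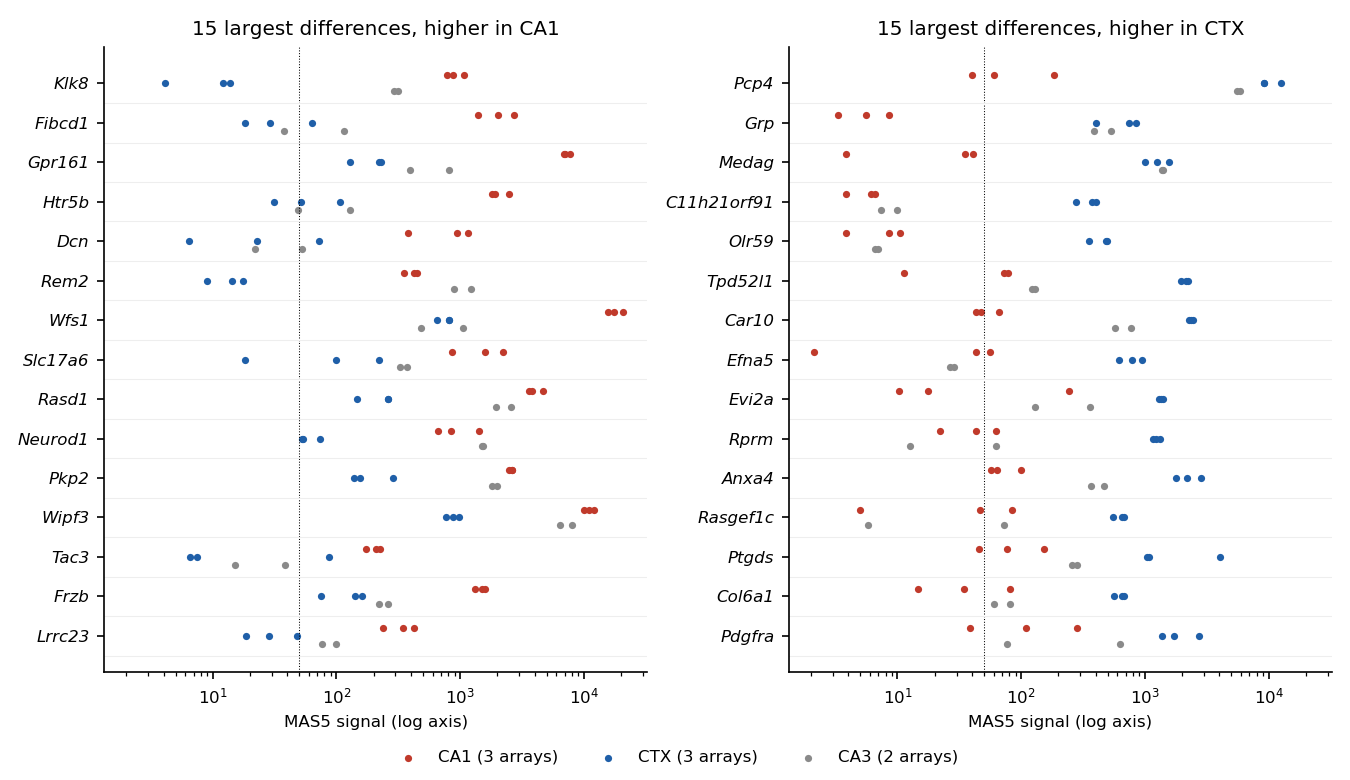
Deposited MAS5 signals (log axis) of the 15 genes with the largest differences higher in CA1 (left) and in CTX (right), 1 point per array, in red for CA1, in blue for CTX and in grey for CA3 replicates 1 and 2; the dotted line marks a signal of 50. The red and blue points do not overlap in any of the 30 genes, which were chosen from these same arrays for the size of that difference. Signals did not overlap in 44.9% of all probe sets tested. The grey points fall near CA1 for some (*Neurod1*, *Pkp2*) and near CTX for others (*Wfs1*, *Fibcd1*).

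CA3 neurons, the other hippocampal population, lay nearer to CA1 more often than to CTX at these genes, but not uniformly. Among the 134 probe sets at least 4-fold higher in CA1, the mean of CA3 replicates 1 and 2 lay nearer to CA1 in 82 (61.2%). Among the 154 at least 4-fold higher in CTX, it lay nearer to CTX in 51 (33.1%) and nearer to CA1 in 103. *Rem2* was an example of a gene shared by both hippocampal fields (422, 445 and 351 in CA1, 894 and 1216 in CA3), and *Medag* of one shared by CA3 and cortex (1371 and 1392 in CA3, 1003, 1568 and 1243 in CTX). These positions are a description, since they rest on the CA1 and CTX arrays that chose the genes.

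Layer and field markers beyond those of CA1 gave a mixed picture. Of 7 deep and middle cortical layer markers tested (21 listed), 5 (71.4%) were higher in CTX and 2 (28.6%) in CA1 (median -0.67). The shares of all probe sets tested were 10.2% and 28.3%. Higher in CTX were *Rprm*, *Nnat*, a proteolipid (-1.97), *Ccn2*, a matricellular protein of layer VIb (-1.56), *Tle4*, a corepressor (-0.67), and *Sulf2*, a heparan sulfatase (-0.65). Of these, *Nnat* and *Sulf2* were not particular to cortex. In CA3 *Nnat* gave 12136 and 11693, above 982 to 1243 in CTX, and *Sulf2* gave 5192 and 6319, above 2136 to 2527. *Crym*, a thyroid hormone binding protein (0.98), and *Nr4a2*, an orphan nuclear receptor (1.88), went the other way although both mark deep cortical neurons. Of 7 CA2 and CA3 markers, 3 were higher in CA1, namely *Necab2*, a neuronal calcium-binding protein (2.92), *Rgs14* (2.36) and *Bok*, a BCL2 family member (2.29), and only *Pcp4* was higher in CTX. Among the 9 upper layer markers, 3 were tested, and the 2 calls higher in CA1 (*Calb1*, 0.86, and *Lhx2*, 0.72) did not hold without centring. The single dentate granule marker tested of 7 listed, *Prox1*, was higher in CTX (-0.91).

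Markers of glia and vessels were higher in the cortical samples, and whether more such cells or more RNA per cell was captured cannot be told apart in pooled samples. Over all probe sets tested, 10.2% were called higher in CTX and 28.3% in CA1. Of 15 oligodendrocyte markers tested (26 listed), 13 were higher in CTX and 1 in CA1 (median -2.23). The summed signal of the list was 8211 to 11550 in the 3 CA1 arrays and 40858 to 58513 in the 3 CTX arrays. *Mbp*, myelin basic protein, gave 2951, 2126 and 2295 in CA1 and 11557, 16532 and 18128 in CTX (-2.32 ± 0.23, limma adjusted p = 1.74e-05). It was thus far from absent in CA1. Another myelin gene, *Mobp*, gave 838, 709 and 748 against 6096, 9767 and 10818 (-3.19 ± 0.23), and *Evi2a* (-4.95, or -3.68 with the floor of 50) and *Pdgfra*, the receptor of oligodendrocyte precursors (-3.82), were among the 15 largest cortical differences. *Ptgds*, a prostaglandin D synthase of oligodendrocytes and meninges, varied between the cortical arrays (4048, 1031 and 1082, against 154, 45.6 and 77.0 in CA1).

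Of 17 astrocyte markers tested (22 listed), 11 were higher in CTX and 1 in CA1 (median -0.74; summed signal 32247 to 39185 in CA1 and 47877 to 72904 in CTX). Differences were smaller than for myelin genes, from -0.60 for *Gja1*, a gap junction protein, to -1.52 for *Agt*, angiotensinogen, and *Gfap*, the astrocyte filament protein, was not called (0.13 ± 0.19). All 8 microglia markers tested of 18 were higher in CTX (median -1.48, sums 2042 to 2895 in CA1 and 5933 to 11449 in CTX). So were all 4 vascular markers tested of 18 (median -1.88, sums 876 to 1472 and 3591 to 5799). A further 9 and 10 on the array did not pass the filter on low signals, which a gene low in CA1 could pass through CTX alone. *Cd74*, the MHC class II invariant chain, gave 49.7, 23.3 and 48.6 in CA1 and 499, 242 and 344 in CTX (-2.86). The tight junction gene *Cldn5* differed by -1.90. Calls for these 4 lists in the cortical direction held without centring, and the part of such cells in the neuronal differences below was not tested. Interneuron markers leaned to CTX by less: of 9 tested (18 listed), 3 (33.3%) were higher in CTX and 1 (11.1%) in CA1 (median -0.28). Those shares stand beside 10.2% and 28.3% of all probe sets tested. Without centring 5 (55.6%) were higher in CTX, beside 15.9% of all probe sets tested, and 0 in CA1. *Gad1*, the GABA-synthesising enzyme, was not called after centring (-0.28 ± 0.21) and was higher in CTX without it (-0.60).

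**Figure D3:**
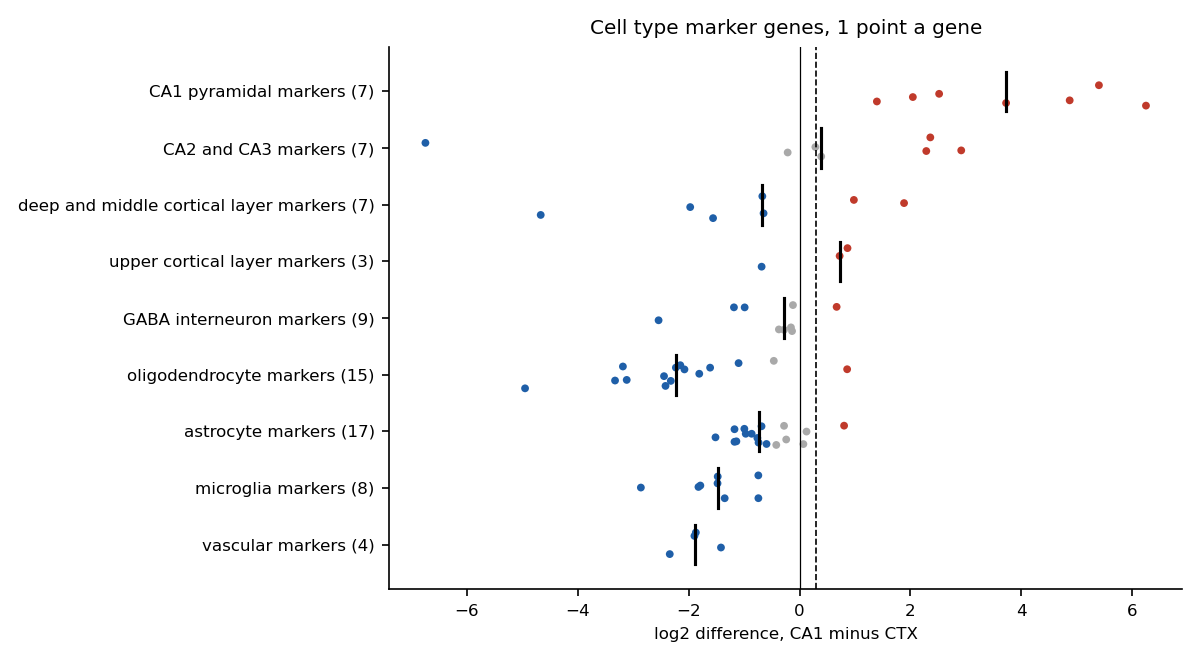
Log2 difference (CA1 minus CTX) of each tested gene of 9 cell type marker lists, with the number tested in brackets, in red where called higher in CA1, in blue where called higher in CTX and in grey otherwise. Black bars mark list medians, from -2.23 for oligodendrocyte to 3.73 for CA1 pyramidal markers, and the dashed line the median of all tested, 0.31.

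Ion channel genes separated by subunit. Of 25 potassium and HCN channel genes tested (63 listed), 8 (32.0%) were higher in CA1 and 9 (36.0%) in CTX. Without centring the counts were 8 and 10. The A-type channel of hippocampal dendrites is built from a Kv4 pore with KChIP and DPP partners. Signals of its pore gene *Kcnd2* (Kv4.2) were 5594, 4864 and 5065 in CA1 and 1556, 1504 and 1429 in CTX (2.10 ± 0.19). Its partners *Kcnip2* (2.40) and *Dpp6* (2.13) were higher in CA1 as well. The paralogous pore *Kcnd3* (Kv4.3) had the opposite order, with 534, 551 and 608 in CTX and 46.3, 70.8 and 68.5 in CA1 (-2.90 ± 0.20), and its CA3 signals of 520 and 400 were close to those of cortex. The KChIP gene *Kcnip3* was also higher in CTX (-0.75).

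The other potassium channel genes higher in CA1 were *Kcnj6*, a G protein-gated inward rectifier (2.23), *Kcna4*, a Kv1 pore (1.54), *Kcnma1*, the BK channel pore (1.43), *Kcng2* (1.37) and *Kcnab2*, a Kv β subunit (1.03). Higher in CTX were the Kv3 pores *Kcnc4* (-1.55), *Kcnc2* (-1.10) and *Kcnc1* (-0.80), *Kcna1* (-1.43) and the K2P channel gene *Kcnk4* (-1.43). Of 16 sodium and calcium channel genes tested (29 listed), 7 (43.8%) were higher in CA1 and 1 (6.25%) in CTX, and 5 and 2 without centring. *Scn3b*, a sodium channel β subunit, gave 8587, 8080 and 7006 in CA1 against 945, 916 and 955 in CTX (3.38 ± 0.19). *Cacna1h*, a T-type calcium channel pore (2.32), *Cacnb2* (1.95) and *Cacna2d1* (1.61), auxiliary calcium channel subunits, were higher in CA1, and the sodium channel pore *Scn1a* was higher in CTX (-1.08).

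Glutamate receptor genes that were called lay on the CA1 side, with 1 exception. Of 7 ionotropic receptor genes tested (17 listed), 3 (42.9%) were higher in CA1 and 0 in CTX, and 3 and 1 without centring. *Gria1*, the AMPA receptor subunit GluA1, gave 2293, 1791 and 2364 in CA1 and 663, 795 and 445 in CTX (2.10 ± 0.25). *Gria2* (GluA2) differed by 1.27 and *Grin1*, the obligatory NMDA receptor subunit, by 1.15, although a dimmer probe set of *Grin1* went the other way (-0.71, limma adjusted p = 0.0249). Of 2 metabotropic receptor genes tested (8 listed), *Grm3* was called, and it was higher in CTX, at 1437, 1221 and 1320 against 179, 152 and 94.7 (-2.96 ± 0.21), with CA3 at 192 and 48.0. Of 6 GABA receptor genes tested (15 listed), 4 (66.7%) were higher in CA1 and 0 in CTX. Those that held without centring were *Gabra5*, the subunit of extrasynaptic tonic inhibition (1.59), and *Gabrb1* (1.20). None of the 11 nicotinic and serotonin channel receptor genes passed the filter on low signals.

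Calcium handling genes were the function list with the highest median. Of 8 genes for calcium pumps, exchangers and release channels tested (15 listed), 5 (62.5%) were higher in CA1 and 0 in CTX (median 1.01). The same counts were found without centring. *Itpka*, the kinase that phosphorylates inositol trisphosphate in dendritic spines, gave 5752, 5338 and 5563 in CA1 and 1190, 1124 and 1047 in CTX (2.63 ± 0.19), and in CA3 it was near the cortical level at 1329 and 1014. The plasma membrane calcium pumps *Atp2b1* (1.47) and *Atp2b3* (1.01), the IP3 receptor *Itpr1* (1.21) and the sodium-calcium exchanger *Slc8a1* (1.01) made up the rest. Of 14 calcium-binding protein genes tested (20 listed), 4 (28.6%) were higher in CA1 and 5 (35.7%) in CTX. *Hpca*, the calcium sensor hippocalcin, gave 8365, 9618 and 10195 in CA1 against 1173, 1613 and 1217 in CTX (3.14 ± 0.21), whereas its relative *Ncald*, neurocalcin δ, was lower in CA1, with 1260, 703 and 835 against 5964, 5060 and 6419 (-2.36 ± 0.21). *Nrgn*, neurogranin (1.39), and *Gap43* (-1.16), both calmodulin-binding substrates of protein kinase C, also differed in opposite directions.

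Of 19 CaM kinase, calcineurin and protein kinase C genes tested (26 listed), 7 were higher in CA1 (36.8%, beside 28.3% of all probe sets tested) and 2 in CTX (10.5%, beside 10.2%), against 4 and 6 without centring. The calcineurin subunits *Ppp3ca* (1.37) and *Ppp3r1* (1.34) and the kinase *Prkca* (1.62) held in CA1 without centring, and *Prkcq* (-2.70) and *Prkcd* (-1.03) held in CTX. Postsynaptic scaffold genes gave 9 and 3 calls of 20 tested (37 listed), 4 and 3 without centring. *Akap5*, the anchor for kinases and calcineurin at glutamate synapses, gave 894, 948 and 845 in CA1 and 202, 264 and 219 in CTX (2.29 ± 0.19), and *Dlg3*, a PSD-95 relative, differed by 1.51.

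On the presynaptic side, 6 genes were higher in CA1 and 8 in CTX of 32 tested (63 listed). *Stx1a*, the plasma membrane SNARE syntaxin 1A, gave 1544, 1249 and 1314 in CTX and 242, 237 and 230 in CA1, a narrow spread in both (-2.21 ± 0.19). *Cplx2*, complexin 2 (-1.49), and *Bsn*, the active zone scaffold bassoon (-1.01), were on the same side. *Syt12* (1.14) and *Rab3d* (1.21), which act in vesicle traffic, were higher in CA1, and *Slc17a7*, the vesicular transporter VGLUT1, differed by 0.61 with a call that did not hold without centring.

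Ephrin-A receptors and an ephrin-A ligand were found on opposite sides. Of 39 adhesion and guidance genes tested (93 listed), 17 (43.6%) were higher in CA1 and 9 (23.1%) in CTX, against 7 and 10 without centring. *Epha7*, an ephrin-A receptor, gave 206, 306 and 376 in CA1 and 35, 43.7 and 43.2 in CTX (3.14 ± 0.21). Its relatives *Epha4* (1.67) and *Epha5* (1.22) and the semaphorin receptor *Nrp1* (1.77) were higher in CA1 too, and all 4 held without centring. The ligand *Efna5*, ephrin-A5, gave 614, 953 and 780 in CTX and 55.6, 2.1 and 43.1 in CA1, with CA3 as low as CA1 at 26.4 and 28.5. Its difference of -5.17 ± 0.74 (-3.17, -8.61 and -3.74 within pairs) became -3.58 with signals under 50 set to 50. A dimmer probe set of the gene that did not pass the filter had the opposite sign (1.45). *Sema5a* (-1.66), *Sema4a* (-1.55) and *Sema4d* (-1.23), which are semaphorin ligands, and *Negr1*, an adhesion protein (-1.58), were also higher in CTX.

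Extracellular matrix genes gave 11 calls higher in CTX (52.4%) and 3 in CA1 (14.3%) of 21 tested (51 listed), with a median of -0.85. The shares of all probe sets tested were 10.2% and 28.3%. A further 25 on the array did not pass the filter on low signals, which a gene low in CA1 could pass through CTX alone. The glial and vascular marker lists, with the sums given above, moved the same way. *Col6a1* (-3.87), *Col19a1* (-3.04), *Vcan*, the proteoglycan versican (-2.98), and *Edil3* (-2.69) led the cortical genes, the first 3 of them at -3.10, -2.16 and -1.89 with the floor of 50, and *Dcn* was the exception that held in CA1 without centring. *Edil3* was as high in CA3 (1406 and 2006) as in CTX (1568, 1670 and 1449), against 235, 204 and 153 in CA1. Growth factor genes gave 8 calls (34.8%) in each direction of 23 tested (61 listed). The shares of all probe sets tested were 28.3% for CA1 and 10.2% for CTX. Without centring the growth factor calls were 5 and 10. *Inhbb*, the activin βB subunit, was at 601, 571 and 610 in CA1, 96.8, 167 and 115 in CTX and 56.3 and 30.9 in CA3 (2.59 ± 0.22), and the ligand *Wnt4* (2.32), the Frizzled receptor *Fzd1* (1.90) and *Fgfr1* (1.44) were also higher in CA1. *Cxcl12*, a chemokine of vessels and meninges (-3.16), *Tgfb2* (-3.13, or -2.06 with the floor), *Gfra2* (-1.64) and *Vegfa* (-1.58) were higher in CTX.

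**Figure D4:**
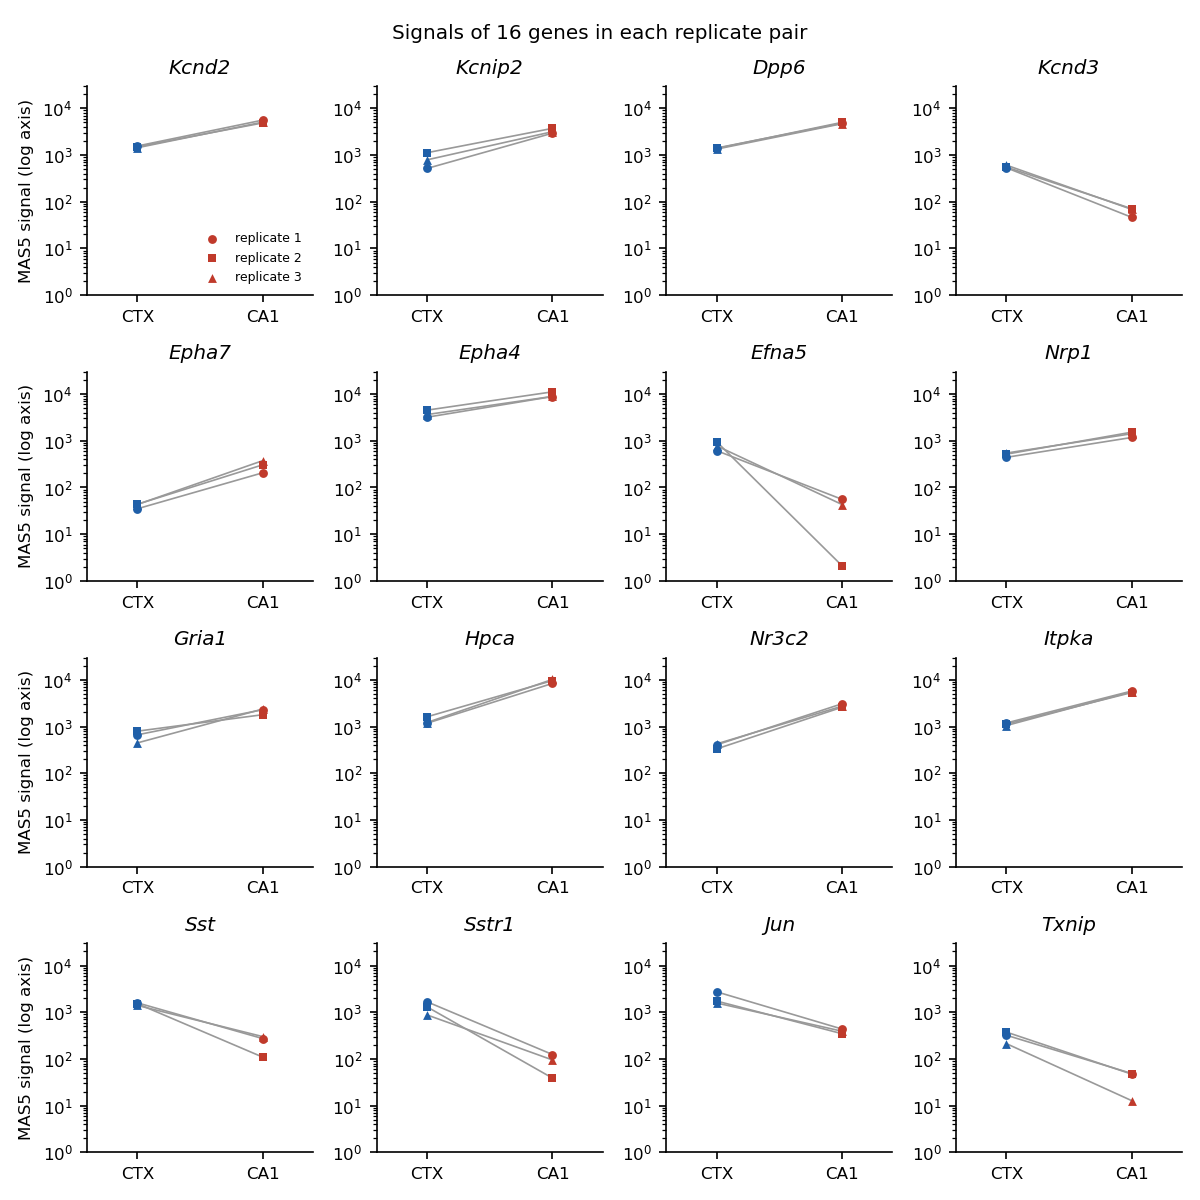
Deposited MAS5 signals (log axis) of 16 genes in CTX (blue) and CA1 (red), with lines joining the 2 arrays of each replicate number (circle, square and triangle for replicates 1 to 3). Lines run in 1 direction within every gene, upward for *Kcnd2*, *Kcnip2*, *Dpp6*, *Epha7*, *Epha4*, *Nrp1*, *Gria1*, *Hpca*, *Nr3c2* and *Itpka* and downward for *Kcnd3*, *Efna5*, *Sst*, *Sstr1*, *Jun* and *Txnip*. All 16 had been called on these same arrays.

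Peptide signalling differed in both ligand and receptor. *Sst*, somatostatin, a peptide of interneurons, gave 1594, 1530 and 1402 in CTX and 273, 109 and 301 in CA1 (-2.54 ± 0.29). Its receptor gene *Sstr1* was also higher in CTX, at 1679, 1307 and 878 against 125, 39.0 and 95.3 (-3.69 ± 0.31), while the receptor *Sstr4* was higher in CA1 (1.78). *Nxph3*, neurexophilin 3, a ligand of neurexin (-3.52), and *Penk*, proenkephalin (-1.31), were higher in CTX, and *Scg2*, secretogranin II (1.39), and *Pcsk2*, a prohormone convertase (1.21), in CA1. Over all 17 peptide and granin genes tested (28 listed), 5 (29.4%) were higher in CA1 and 4 (23.5%) in CTX.

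Among 18 G protein coupled receptors of peptides, amines and lipids tested (52 listed), 6 (33.3%) were higher in CA1 and 8 (44.4%) in CTX. The adrenergic receptors split, with *Adra1d* higher in CA1 (2.38) and *Adra1b* higher in CTX (-2.12). The dopamine receptor *Drd1* (-2.71, or -1.81 with the floor of 50), the cholecystokinin receptor *Cckbr* (-1.47) and *Lpar1*, a lysophosphatidate receptor of oligodendrocytes and neurons (-3.27), were higher in CTX. Downstream, the RGS proteins, which shorten G protein signals, also split, with 2 calls higher in CA1 and 3 in CTX of 8 tested (16 listed). *Rgs4* gave 6161, 6492 and 4458 in CTX and 672, 674 and 726 in CA1 (-2.71 ± 0.22), and *Rgs14*, known from CA2, gave 1286, 1539 and 1397 in CA1 and 312, 356 and 355 in CTX (2.36 ± 0.19).

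Of 31 transcription factors of forebrain identity tested (66 listed), 11 (35.5%) were higher in CA1 and 7 (22.6%) in CTX, against 8 and 9 without centring. Beside *Neurod1* and *Pou3f1*, those higher in CA1 included *Bhlhe41*, a circadian repressor (2.09), *Lmo3* (1.69) and *Neurod2* (1.43). *Mef2c*, a MADS box factor of cortical neurons, was higher in CTX at 10869, 12942 and 9992 against 2793, 2887 and 2811 in CA1 (-1.67 ± 0.20), and lower still in CA3 (1123 and 859). *Tcf7l2*, a Wnt effector, was higher in CTX too (-2.14), as was *Id1* (-1.73). The mineralocorticoid receptor gene *Nr3c2*, which binds corticosterone with high affinity, gave 3075, 2591 and 2730 in CA1 and 405, 331 and 424 in CTX (3.17 ± 0.19). The glucocorticoid receptor *Nr3c1* differed far less (0.74 ± 0.19, not called without centring), and its target and cochaperone *Fkbp5* was higher in CA1 (0.93). In all, 5 (38.5%) of the 13 steroid, retinoid and thyroid receptor and target genes tested (25 listed) were higher in CA1 and 0 in CTX. Without centring the counts of that list were 3 and 2.

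Immediate early genes, which neurons switch on with activity and tissues with stress, gave 8 calls higher in CTX and 3 in CA1 of 16 tested (25 listed; median -0.31), and 8 and 2 without centring. *Jun* gave 2740, 1740 and 1579 in CTX and 436, 347 and 392 in CA1 (-2.01 ± 0.21), and CA3 was at 2238 and 1746. *Dusp1*, a MAP kinase phosphatase, gave 6044, 4815 and 3563 against 1856, 1437 and 692 (-1.62 ± 0.20), and *Klf4* differed by -1.69. *Fos* signals overlapped between regions (4549, 3573 and 1622 in CTX, 1942, 2149 and 785 in CA1) but were higher in CTX in each pair (-0.69 ± 0.19, limma adjusted p = 0.0145, not called without the block). *Dusp6* was the main gene on the other side, higher in CA1 by 1.93.

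Genes of defence against oxidants, to which the design points, went both ways, after centring in shares near those of all probe sets tested. Of 41 antioxidant and metal-binding genes tested (61 listed), 10 (24.4%) were higher in CA1 and 6 (14.6%) in CTX (median 0.19). The shares of all probe sets tested were 28.3% for CA1 and 10.2% for CTX. Without centring the order turned, with 3 (7.32%) higher in CA1 and 12 (29.3%) in CTX. On that scale 983 of all 8221 probe sets tested were higher in CA1 and 1304 (15.9%) in CTX. The enzymes of superoxide and peroxide removal were not called: *Sod1* gave 4578, 3807 and 3892 in CA1 and 5180, 4923 and 4402 in CTX (0.07 ± 0.19), *Sod2* gave 362, 341 and 430 against 409, 580 and 368 (0.07 ± 0.24), and *Gpx1* gave 659, 888 and 906 against 1406, 1092 and 1558 (-0.41 ± 0.21, limma adjusted p = 0.126), the last of them higher in CTX without centring (-0.72). *Nfe2l2*, the transcription factor NRF2 that drives many antioxidant genes, was higher in CTX, at 377, 229 and 294 against 84.8, 122 and 62.7 in CA1 (-1.45 ± 0.24).

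*Txnip*, the thioredoxin inhibitor, was lower in CA1 as well, at 48.8, 47.3 and 12.8 against 323, 377 and 214 (-2.95 ± 0.24, or -2.25 with the floor of 50). The genes that held on the CA1 side with and without centring included *Gsto1*, a glutathione transferase, at 6928, 8384 and 6931 against 2649, 2538 and 2470 (1.85 ± 0.19), *Ucp2*, a mitochondrial uncoupling protein (1.47), and *Gclc*, the rate-limiting enzyme of glutathione synthesis (1.14). *Nefl*, the light neurofilament gene, was not called (0.27 ± 0.26), and its signals overlapped between the regions.

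Heat shock and chaperone genes gave 17 calls higher in CA1 (43.6%, beside 28.3% of all probe sets tested) and 1 in CTX of 39 tested (49 listed; median 0.56). Without centring they gave 5 (12.8%) and 3, and the share in CA1 was close to that of all probe sets on that scale, 983 of 8221. *Dnajb1*, an HSP40 cochaperone, gave 3173, 2524 and 3459 in CA1 and 1584, 1529 and 1433 in CTX (1.31 ± 0.21), and it held without centring, as did *Stub1*, *Dnajb5*, *Dnajb4* and *Dnaja2* (0.90 to 1.00). The cortical call was *Cryab*, αB-crystallin, which is abundant in oligodendrocytes and astrocytes, at 1073, 1086 and 1054 against 195, 146 and 209 (-2.25 ± 0.21).

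Energy genes gave few calls. Of 25 glycolysis genes tested (34 listed), 1 was higher in CA1 and 3 in CTX, and the cortical ones were *Pfkp*, the platelet-type phosphofructokinase (-1.71), the glucose transporter *Slc2a1* (-1.42) and the astrocytic aldolase *Aldoc* (-1.17). *Pfkp* gave 7915, 6500 and 6445 in CTX and 1474, 1578 and 2103 in CA1, with CA3 between them at 4388 and 3735. Of 23 citrate cycle genes tested (26 listed), 3 were higher in CA1 and 1 in CTX, and 2 and 4 without centring. Of 77 oxidative phosphorylation genes tested (86 listed), 15 were higher in CA1 (19.5% of those tested, against 28.3% of all probe sets) and 1 in CTX, and 7 and 2 without centring, with a median of 0.29 beside 0.31 for all tested. The calls were led by *Ndufa5* (1.98), *Ndufaf3* (1.36) and *Ndufv3* (1.13) of complex I and *Cox7a2l* (1.12). Of 5 sodium pump genes tested (10 listed), the regulators *Fxyd6* (-2.80), *Fxyd7* (-1.18) and *Fxyd1* (-0.67) were higher in CTX, and *Fxyd6* gave 873, 616 and 733 there against 89.7, 83.2 and 81.5 in CA1.

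Genes of DNA repair, splicing and the proteasome leaned to CA1 after centring, by an amount close to the shift of all genes. DNA repair gave 10 calls higher in CA1 and 1 in CTX of 28 tested (51 listed), and 3 and 1 without centring, where *Xrcc1*, the scaffold of single-strand break repair (1.37), *Apex1*, the abasic site endonuclease (1.02), and *Parp1* (0.97) remained. Splicing factors gave 18 (32.7%) and 2 of 55 tested (69 listed). Without centring they gave 7 (12.7%) and 2, among them *Snrpb2* (1.24), *Hnrnpm* (1.20) and *Snrpa* (1.14). Proteasome subunits gave 10 (30.3%, beside 28.3% of all probe sets tested) and 0 of 33 tested (37 listed), and 4 and 1 without centring. Cytosolic ribosomal protein genes had 0 calls higher in CA1 and 4 in CTX (10.3%, beside 10.2% of all probe sets tested) of 39 tested (44 listed). Their median was -0.22. Without centring they gave 0 and 17 (43.6%, beside 15.9% of all probe sets tested). *Rpl35* differed most (-0.95). Cholesterol synthesis genes lay on the CTX side, with 0 and 6 (37.5%) of 16 tested (25 listed), and 0 and 9 (56.2%) without centring. They were led by *Srebf1*, the sterol-regulated transcription factor (-1.03), and *Cyp51* (-0.83).

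**Figure D5:**
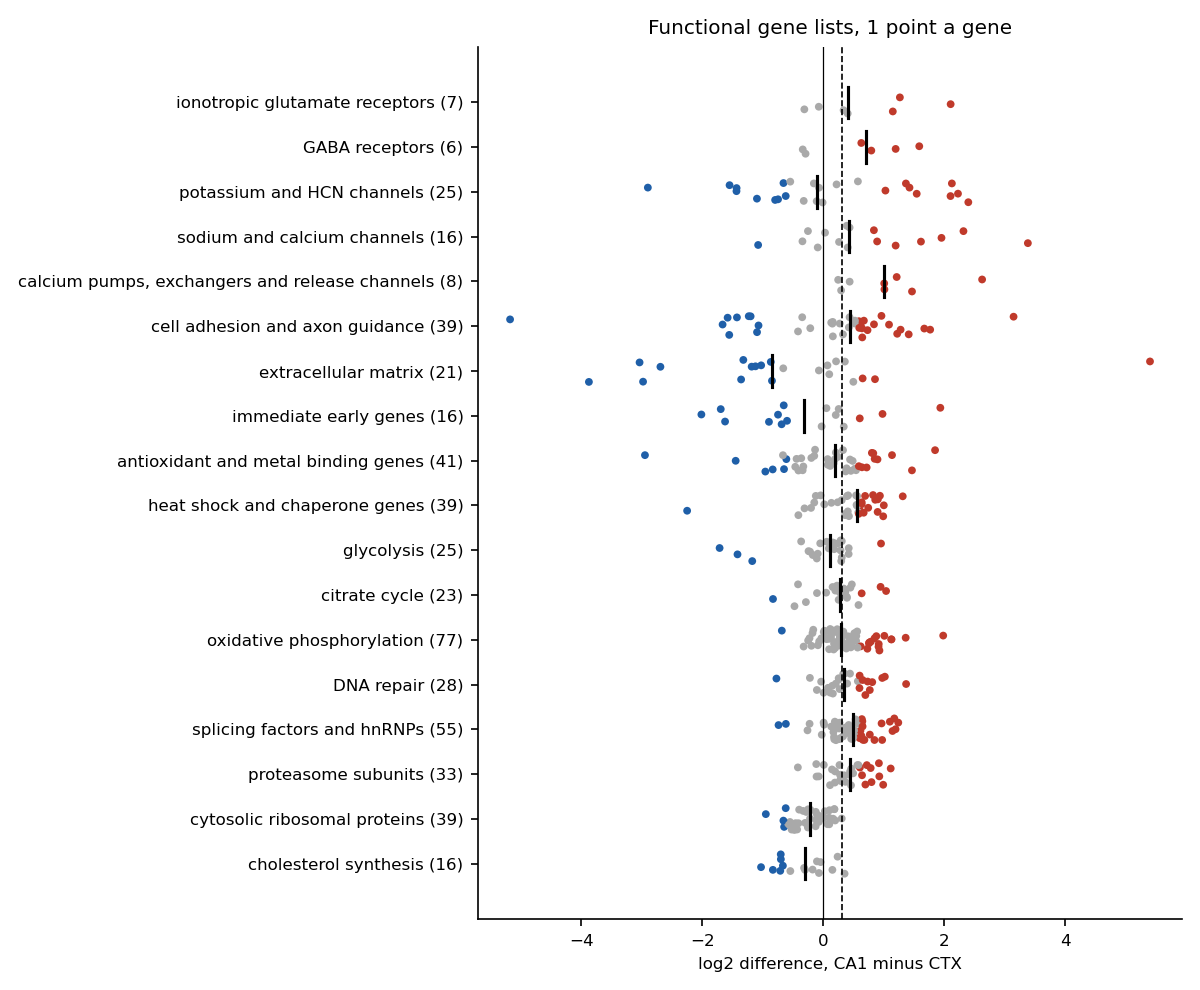
Log2 difference (CA1 minus CTX) of each tested gene of 18 functional lists, coloured by call as for the marker lists, with black bars at list medians and the dashed line at the median of all tested, 0.31. Calcium pumps, exchangers and release channels sit to the right of that line (median 1.01) and extracellular matrix genes to the left (-0.85), whereas oxidative phosphorylation genes lie on it (0.29).

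Among the remaining lists, cytoskeletal genes gave 6 calls (16.7%) higher in CA1 and 7 (19.4%) in CTX of 36 tested (46 listed). *Map4*, a microtubule-associated protein, gave 7134, 8564 and 7695 in CA1 and 1246, 1158 and 1521 in CTX (2.90 ± 0.19), and *Stmn1*, the tubulin-binding stathmin, gave 1797, 1383 and 1591 against 8083, 9327 and 7230 (-2.05 ± 0.21). Actin-associated *Dbn1*, drebrin of dendritic spines (1.88), and *Tpm1* (1.44) were higher in CA1, and *Tpm4* (-2.49) and *Vim*, the filament protein of glia and vessels (-2.23), in CTX. Annexin and S100 genes gave 2 (20.0%) and 6 (60.0%) of 10 tested (20 listed), where the calls in CA1 did not hold without centring. MHC and other immune genes gave 3 (21.4%) and 5 (35.7%) of 14 tested (44 listed). The cortical ones included *C3*, a complement component (-2.49, or -1.89 with the floor of 50), and *Cd24* (-2.32, or -1.52).

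Promoter sequence was examined for the genes at least 4-fold apart, because 3 classes of transcription factor differed between the regions (*Neurod1* and *Pou3f1* higher in CA1, *Tcf7l2* in CTX). The window was the 250 bases before the RefSeq gene start (GRCr8), searched on both strands. The E-box CAGATG bound by NEUROD factors was in 8.27% of the promoters of all genes tested, 11.1% of the 81 found for genes higher in CA1 and 13.8% of the 94 found for genes higher in CTX. The TCF7L2 motif ATCAAAG was in 2.0%, 3.7% and 4.26%, and the POU octamer ATGCAAAT in 1.03%, 1.23% and 0%. As shares of all 27457 promoters they were 13.7%, 3.18% and 1.5%. The windows of the CA1 marker *Wfs1* (chr14:78034955-78035204, plus strand) and of the cortical gene *Medag* (chr12:10670914-10671163, minus strand) are shown as examples without and with matches, with E-box matches (as CATCTG, the same site on the other strand) in capitals.
*Wfs1*: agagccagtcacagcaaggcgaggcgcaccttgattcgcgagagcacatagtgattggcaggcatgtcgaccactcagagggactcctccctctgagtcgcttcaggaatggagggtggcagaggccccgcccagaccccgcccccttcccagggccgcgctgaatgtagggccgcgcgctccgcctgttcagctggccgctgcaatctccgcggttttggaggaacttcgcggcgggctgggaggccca
*Medag*: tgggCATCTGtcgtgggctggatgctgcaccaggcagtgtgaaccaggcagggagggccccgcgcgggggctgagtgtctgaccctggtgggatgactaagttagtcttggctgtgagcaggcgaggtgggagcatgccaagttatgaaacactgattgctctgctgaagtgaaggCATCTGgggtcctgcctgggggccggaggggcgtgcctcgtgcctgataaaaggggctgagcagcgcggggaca
The matches in *Medag*, a gene higher in cortex, are a description of letters in this window and say nothing of binding there.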

How the data were processed

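Each array measured RNA of laser-captured neurons of 1 region. Values were deposited as intensities, namely MAS5 signals on a linear scale that the authors made with the scanner software and scaled to a common target (per the submitters' processing notes and the study's methods, with no version of MAS5 given in the notes). In the 6 arrays used, the mean without the lowest and highest 2% was 500.1, signals ran from 0.1 to 39921.6, and 0 columns had no sample. Detection calls were not used. With 1 signal per probe set and array, precision is set by how many arrays there are.

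Of 15923 probe sets, 57 controls were left out. Names came from GEO's platform annotation, updated through Entrez numbers to RefSeq symbols (GRCr8): 12783 probe sets had 1 symbol, 312 several and 2771 none, covering 10411 genes. A probe set was tested if its signal exceeded the array median in at least 3 of the 6 arrays. A gene high in 1 region only could therefore enter through that region. Log2 signals minus the array median were fitted with limma 3.58.1 in R 4.3.3 (lmFit, eBayes, Benjamini-Hochberg), with the replicate number as a fixed block, leaving 2 residual degrees of freedom and a prior of 9.71. Summaries and figures used Python 3.11.15 and matplotlib 3.10.9. Tested on simulated data for the 8221 probe sets of this comparison, 92.3% of 2-fold and 12.9% of 1.5-fold changes were called, and 0.0997% of unchanged probe sets. Only 70, 65 and 65 probe sets were changed, by 1.5-, 2- and 3-fold, whereas 38.5% were called in the data. Noise was normal at limma's moderated spread, with no shift of whole arrays, so rates in the data may differ.

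The labels give biological replicates numbered 1 to 3 in each region. They were read as pairs because the study's methods describe all regions as taken from each animal and used paired tests, although no source used here states that a number marks an animal. Deviations from the group mean correlated at 0.164, 0.160 and -0.0277 for arrays of the same number, against -0.196 to 0.0607 for others, so the values add little to the pairing. The p-values and standard errors measure the spread between these arrays, drawn by limma toward the spread of all probe sets.

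The members and gene lists were chosen with earlier results of these data known. Named genes were the 15 largest called differences in each direction, the markers *Wfs1*, *Mbp* and *Anxa4*, and up to 6 called members per list, largest first. Genes the study measured by PCR or protein were added, namely *Nefl*, *Tf*, *Mt1a*, *Nfe2l2*, *Sod1*, *Sod2* and *Gpx1*. NADPH-cytochrome P450 reductase, also measured as protein in the study, was not among them. Each gene was represented by 1 probe set, the brightest. *Tf* shares its probe set with another gene and *Mt1a* did not pass the filter, so neither was reported. *Gfap*, *Gad1*, *Slc17a7*, *Ccn2*, *Crym*, *Calb1*, *Kcnip3* and other members outside that rule were named after their values were seen. Other scaling, filters, models and left-out arrays are compared in the closing section.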

Additional observations from a re-analysis of the deposited data

How the results depend on the processing

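Scaling moved the counts of the 2 directions opposite ways. Probe sets called higher in CA1 numbered 1151 after quantile normalization and 983 without centring, against 2326 as reported, and those higher in CTX 1157 and 1304, against 838. Without the filter on low signals the same limma fit called 0 in each direction, its smallest adjusted p being 0.0559 (2458 higher in CA1 and 1574 higher in CTX at an unadjusted p under 0.05), where the prior degrees of freedom fell to 1.93. An alternative chosen after seeing the data, no filter with a trend in the prior, called 2194 and 1039. The fit of all 12 arrays as labelled, with 2 arrays in doubt, called 354 and 229. The methods' paired test called 1467 and 527 at its unadjusted threshold and 0 and 0 after Benjamini-Hochberg adjustment, and requiring 2-fold left 800 and 496. Leaving out 1 replicate number gave 1505 (without replicate 3) to 2608 (without replicate 2) higher in CA1 and 689 to 843 higher in CTX.

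The fit with no replicate block, which does not use the pairing by number, called 2241 and 773, and of the named genes only *Fos* and *Kcnc1* lost their call. Filters at 4 of 6 or 8 of 12 arrays, an offset or floor of 50, a trend or robust prior and 10 arrays in one fit kept both counts within 1.5 times.

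None of the called genes changed sign by its reported probe set under these alternatives. *Cyp51* (0.030) and *Grin1* (-0.71) each had a dimmer probe set of the other sign. Genes not called did change sign. With quantile normalization and without centring, respectively, *Gfap* was at -0.24 and -0.19, *Nefl* at -0.13 and -0.041, *Sod1* at -0.29 and -0.24 and *Sod2* at -0.13 and -0.24. Leaving out a replicate number gave ranges of -0.13 to 0.64 for *Nefl*, -0.019 to 0.19 for *Sod1* and -0.22 to 0.39 for *Sod2*. In fits with no block, *Gfap* fell to -0.065 without CA1 replicate 1 and -0.17 without CTX replicate 2, *Sod2* to -0.061 without CA1 replicate 3, and without CTX replicate 3 *Nefl* was at -0.035, *Sod1* at -0.015 and *Sod2* at -0.081.

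Leaving out at least 1 of the replicate numbers removed the calls of *Calb1*, *Cyp51*, *Fkbp5*, *Fos*, *Fxyd1*, *Gja1*, *Kcnc1*, *Lhx2*, *Nr3c1*, *Slc17a7*, *Sulf2* and *Tle4*, each under 2-fold as reported. Signals under 50 carry little information, so differences against them are uncertain in size. The cause of these changes was otherwise not tested.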
